A study of Homo sapiens with 30 samples.

Results

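The 9 genes described here are the interleukin 6 family cytokines IL6, LIF and OSM, the receptor chains IL6R and IL6ST, the transcription factor STAT3 and the inhibitors SOCS1, SOCS2 and SOCS3. They were chosen by symbol, as every probe set that the platform annotation maps to 1 of these symbols alone, which gave 21 of 22277 probe sets on the array and 9 of 11963 genes that have such a probe set. RNA was measured in THP-1 cells, an established human acute monocytic leukaemia line, on 30 Affymetrix 3-prime expression arrays. All cells, the controls included, had been made macrophage-like with 82 nM of the phorbol ester PMA for 24 h, and had then been washed, scraped and plated again. The groups at 24 h were MWCNT (multi-walled carbon nanotubes) at 10 or 100 µg/ml, TiO2-NB (titanium dioxide nanobelts) at 10 or 100 µg/ml, and control cells at 0 µg/ml, and the same 5 groups were taken at 1 h, with 3 arrays each. The model is 1 tumour-derived line cultured alone, with no second cell type to send or receive a cytokine. Array replicates are called biological in the labels, which do not say whether they came from separate passages. The p-values rest on the spread between arrays of the same group, pooled over the 10 groups. Whether that is a spread between passages is not known.

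Cytokines of this family bind a receptor of their own and recruit the shared chain gp130, which IL6ST encodes. JAK kinases on gp130 then phosphorylate STAT3, which enters the nucleus and switches on target genes, among them SOCS3, whose product binds gp130 and the kinases and shuts the signal down. Most cells carry gp130 but few carry the interleukin 6 receptor IL6R: monocytes, hepatocytes and some lymphocytes do, and monocytes and macrophages also shed it. Macrophages are a main source of interleukin 6 and oncostatin M, and LIF is made by many cell types under stress or inflammatory signals. An array reads RNA alone, so phosphorylation of STAT3, shedding of IL6R and secretion of the cytokines were not measured.

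RefSeq promoters of GRCh38.p14, taken from 250 bases before to 50 bases after the start site, were given for 6 of the 9 genes. The 3 shown belong to the genes called for TiO2-NB at 100 µg/ml and 24 h for which a promoter was given, the 2 receptor chains and STAT3, at chr1:154405093-154405392 on the plus strand (IL6R), chr5:55994914-55995213 on the minus strand (IL6ST) and chr17:42388393-42388692 on the minus strand (STAT3). Each is written 5′ to 3′ on the strand of its gene, and capitals mark a match to a searched motif.
IL6R: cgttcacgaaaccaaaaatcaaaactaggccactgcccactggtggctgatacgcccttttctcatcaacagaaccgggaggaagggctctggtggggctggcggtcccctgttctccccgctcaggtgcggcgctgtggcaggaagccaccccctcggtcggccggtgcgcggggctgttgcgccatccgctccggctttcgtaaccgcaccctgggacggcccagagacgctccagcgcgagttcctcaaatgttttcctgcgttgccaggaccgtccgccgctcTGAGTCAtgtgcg
IL6ST: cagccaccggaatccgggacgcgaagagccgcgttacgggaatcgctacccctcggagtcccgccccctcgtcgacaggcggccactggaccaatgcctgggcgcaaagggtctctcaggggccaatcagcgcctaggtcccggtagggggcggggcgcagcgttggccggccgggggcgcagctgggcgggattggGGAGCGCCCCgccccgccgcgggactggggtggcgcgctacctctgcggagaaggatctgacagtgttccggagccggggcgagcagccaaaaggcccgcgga
STAT3: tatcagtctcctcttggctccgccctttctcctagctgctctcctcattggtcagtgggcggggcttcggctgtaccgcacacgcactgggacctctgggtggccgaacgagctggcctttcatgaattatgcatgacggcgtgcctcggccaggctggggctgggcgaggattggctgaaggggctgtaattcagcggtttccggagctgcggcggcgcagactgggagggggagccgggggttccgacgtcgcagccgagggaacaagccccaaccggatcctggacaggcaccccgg
Both strands were searched for the STAT site TTCNNNGAA, the AP-1 site TGANTCA, the cyclic AMP response element TGACGTCA and the NF-kB consensus, where a match is a description of letters and not a bound site. IL6R held 1 AP-1 match, TGAGTCA, starting 37 bases after the start site and readable on both strands, and IL6ST held 1 NF-kB match at position -53, read on the strand opposite to the gene. The STAT3 window held none of the 4 motifs. Among all 35116 promoter windows, 7.71% held the AP-1 site, 11.3% the NF-kB consensus, 7.66% the STAT site and 1.85% the cyclic AMP response element. LIF, OSM and SOCS2 are named only.

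Values are log2 intensities, so that 1 unit is a doubling. Array medians lay between 6.35 and 6.46 and the 25th percentiles between 4.77 and 4.91. Probe sets had to exceed their array's 25th percentile on 3 or more arrays to be tested, which left 16 of the 21 probe sets and 8 of the 9 genes. The two-sided test was limma's, over all 30 arrays and 15309 probe sets of single genes, with Benjamini-Hochberg adjustment of p-values, comparison by comparison, and a call at an adjusted p under 0.05. All exposures of 1 time were compared with the same 3 control arrays, so their differences from control are not independent of each other. Probe sets differ in how strongly they bind, and levels of different genes are not compared. Because a probe set whose name ends in _s_at or _x_at can also bind other transcripts, these are less specific than those ending in _at alone. Of 7 macrophage or monocyte markers on the array, 6 lay above the median of all probe sets, among them ITGAX at a mean of 11.47 and CSF1R at 10.34, and FCGR1A was below the 25th percentile at 4.23. None of 5 lymphocyte and none of 5 epithelial markers lay above that median, and 2 of 5 fibroblast markers did, COL1A1 at 7.97 and PDGFRA at 7.48. At 1 h, arrays with the same replicate number deviated together in 4 of the 5 groups, with r between 0.287 and 0.699 in all 18 pairs, and TiO2-NB 10 µg/ml did not follow them. There EBI3 read 7.64, 9.56 and 8.51, against 9.61, 7.72 and 8.47 in 1 h control cells. IRF1 read 9.37, 9.03 and 9.25, against 9.07, 9.47 and 9.22. Replicates 1 and 2 thus stood in reverse order for these genes, and an exchange of their numbers was not tested. At 24 h only 14 of 30 pairs with the same number had r over 0.1. Comparisons at 1 h among those 4 groups were therefore also fitted with the replicate number as a block over their 12 arrays, a choice made after seeing the data. In bulk RNA, fewer cells that express a gene and less RNA per cell cannot be told apart.

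At 24 h and 100 µg/ml, TiO2-NB cells held more RNA of the cytokine LIF and of the shared receptor chain IL6ST, and less RNA of IL6R and STAT3, than control cells. MWCNT cells at the same dose and time held more LIF RNA, while their differences from control in IL6R, IL6ST and STAT3 did not pass the test. The limma test called 7 of the 16 probe sets for TiO2-NB, 3 higher and 4 lower, where 22.1% of all probe sets were called, 10.1% higher and 12% lower. It called 2 of 16 for MWCNT, 1 higher and 1 lower, where 11% of all probe sets were called, 7.48% higher and 3.55% lower. The arrays of the TiO2-NB and control groups did not overlap for 7 of 16 probe sets, against 33.3% of all probe sets, and those of MWCNT and control for 4 of 16, against 28.4%. The median log2 difference over the 16 was 0.00 for TiO2-NB and -0.03 for MWCNT, against 0.01 and -0.02 over all probe sets.

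**Figure D1:**
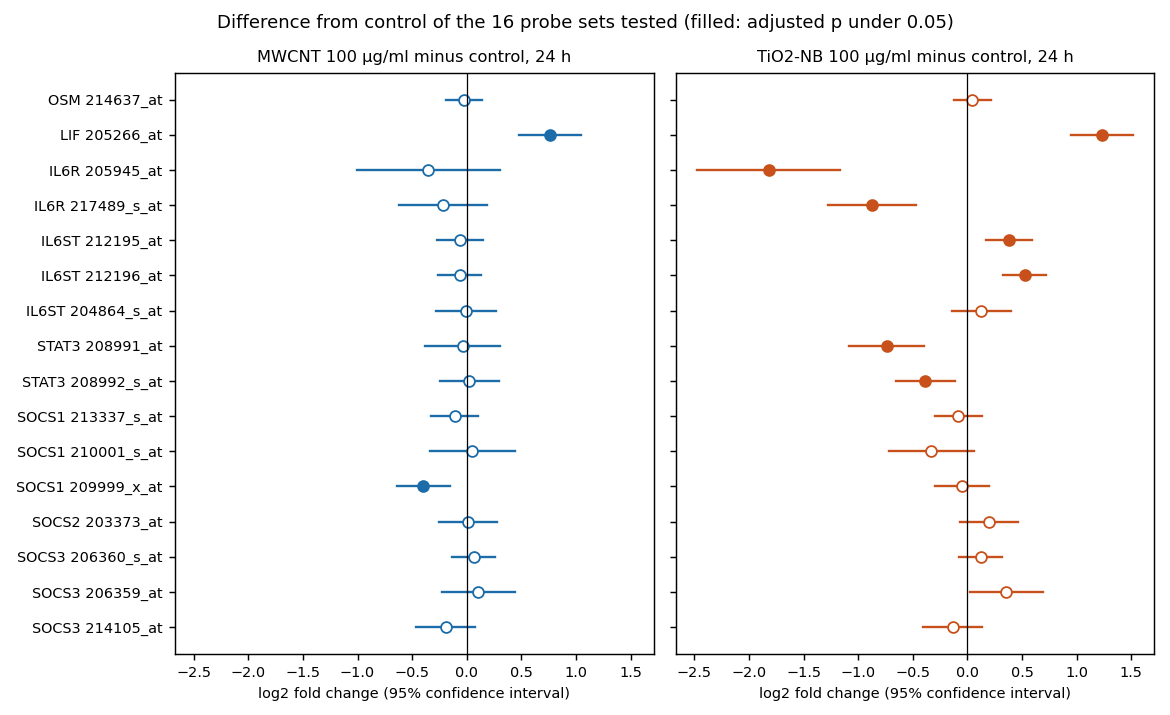
Log2 difference from the 24 h control, with its 95% confidence interval, of the 16 probe sets tested, for MWCNT at 100 µg/ml (left) and TiO2-NB at 100 µg/ml (right); filled points have an adjusted p under 0.05. LIF lay to the right of 0 in both panels, and IL6R and STAT3 lay to the left of 0 with filled points in the TiO2-NB panel.

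LIF, leukaemia inhibitory factor, signals through gp130 paired with the LIF receptor. Its probe set 205266_at read 7.09, 7.31 and 7.43 in the MWCNT 100 µg/ml cells, 7.73, 7.66 and 7.83 in the TiO2-NB 100 µg/ml cells and 6.43, 6.57 and 6.54 in the control cells at 24 h. Every array of both 100 µg/ml groups lay above every control array. The rise over control was 1.23 ± 0.14 for TiO2-NB (log2 difference ± SE of the fit, adjusted p = 5.38e-07, limma, n = 3 arrays a group), a 2.34-fold difference. For MWCNT it was 0.76 ± 0.14 (adjusted p = 0.000517, limma), a 1.70-fold difference. Both LIF rises were called under all 16 alternatives tried, at 1.18 to 1.27 for TiO2-NB and 0.68 to 0.86 for MWCNT.

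At 10 µg/ml and 24 h, LIF 205266_at read 6.90, 7.14 and 6.57 in TiO2-NB cells and 6.78, 6.53 and 6.39 in MWCNT cells, and both groups overlapped the control. The LIF differences from control were 0.36 (95% confidence interval 0.07 to 0.64, adjusted p = 0.733, limma) for TiO2-NB and 0.05 (-0.23 to 0.34, adjusted p = 1, limma) for MWCNT at that dose. The step between doses was itself tested: LIF at 100 µg/ml exceeded LIF at 10 µg/ml by 0.87 ± 0.14 for TiO2-NB (adjusted p = 0.000116, limma) and by 0.71 ± 0.14 for MWCNT (adjusted p = 0.00398, limma).

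The 2 materials were also compared with each other at 100 µg/ml and 24 h. LIF was lower in MWCNT than in TiO2-NB cells by a log2 difference of -0.47 ± 0.14 (adjusted p = 0.0158, limma), with no overlap of arrays. That call rested on single arrays: LIF differed by -0.37 (adjusted p = 0.0869, limma) without MWCNT replicate 1 and by -0.42 (adjusted p = 0.0626, limma) without TiO2-NB replicate 3.

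At 1 h, LIF 205266_at averaged 5.91 ± 0.18 in TiO2-NB and 5.92 ± 0.27 in MWCNT cells at 100 µg/ml, and 6.11 ± 0.10 in control cells (SD, n = 3 each). The difference from control at 1 h was -0.19 for both materials, with a 95% confidence interval of -0.48 to 0.09 for TiO2-NB and -0.47 to 0.10 for MWCNT. The response at 24 h minus that at 1 h, tested as an interaction in the same fit, was 1.42 ± 0.19 for TiO2-NB (adjusted p = 4e-05, limma) and 0.95 ± 0.19 for MWCNT (adjusted p = 0.00877, limma). LIF also stood higher in 24 h than in 1 h control cells, by 0.41 ± 0.14 (adjusted p = 0.0228, limma). The call for the controls was lost without 1 h replicate 2 or 3 or 24 h replicate 2 or 3, at a LIF difference of 0.36 to 0.39 and an adjusted p of 0.0599 to 0.0773 (limma). In the order of the 10 group means, LIF ran TiO2-NB 100, MWCNT 100, TiO2-NB 10, MWCNT 10 and control at 24 h, followed by the 5 groups at 1 h. Of the 9 neighbouring pairs in that order, 7 overlapped, and the gaps lay below TiO2-NB 100 µg/ml at 24 h and between the times.

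**Figure D2:**
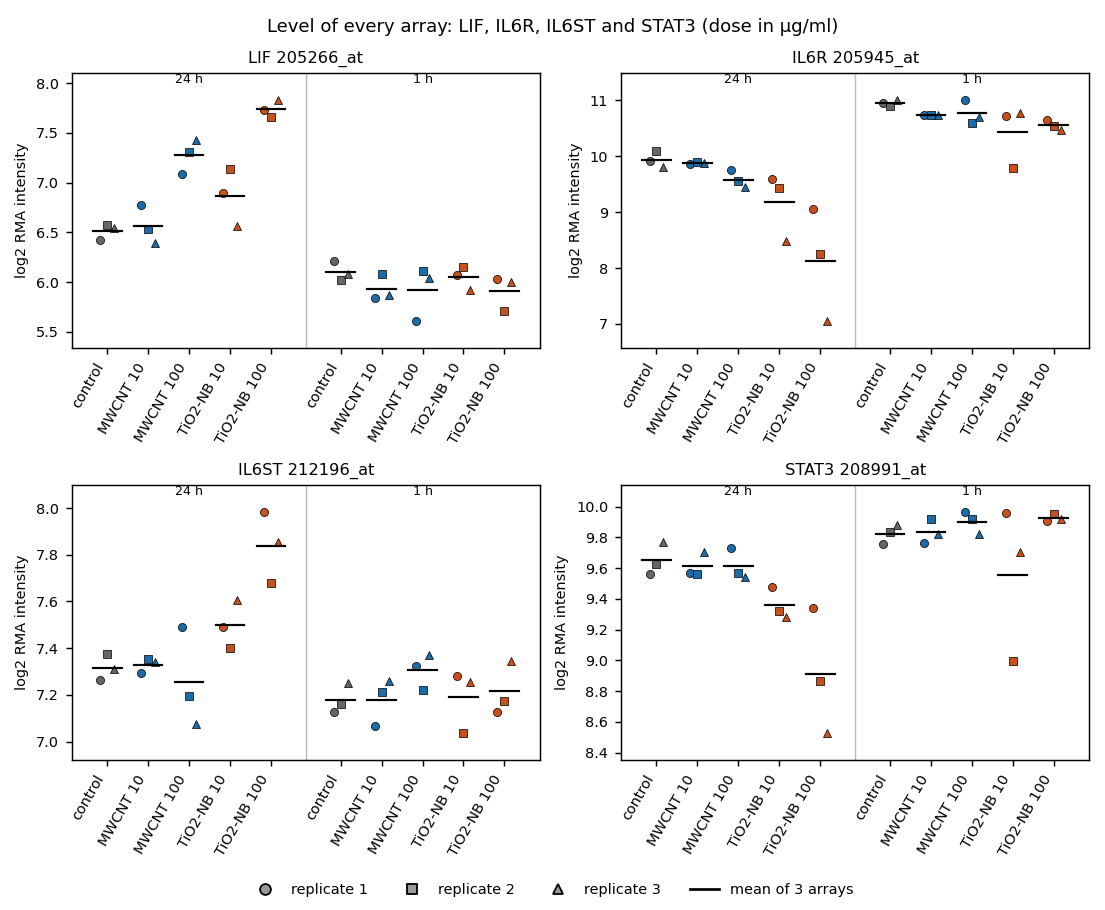
Log2 RMA intensity of each array for LIF, IL6R, IL6ST and STAT3 (1 probe set each), at 24 h (left of the grey line) and 1 h (right), by material and dose in µg/ml; symbols are replicates and the bar is the mean of 3 arrays. At 24 h the TiO2-NB 100 µg/ml arrays are the highest for LIF and IL6ST and hold the lowest arrays for IL6R and STAT3, and TiO2-NB 10 µg/ml at 1 h has 1 low array for IL6R and STAT3.

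The cytokine IL6 itself was near the bottom of the scale in all groups. Its probe set 205207_at ranged from 4.23 to 5.02 with a mean of 4.57, and only 2 of 30 arrays put it over their 25th percentile, so that it was not tested with the others. At 24 h and 100 µg/ml it read 4.65, 5.02 and 4.63 in MWCNT cells, 4.68, 4.72 and 4.70 in TiO2-NB cells and 4.70, 4.34 and 4.65 in control cells. The groups overlapped. In a fit with no filter, IL6 differed from control by 0.13 (95% confidence interval -0.12 to 0.39, adjusted p = 0.529, limma) for TiO2-NB and by 0.20 (-0.05 to 0.45, adjusted p = 0.389, limma) for MWCNT. At this signal a change in a low level of IL6 RNA was not detectable.

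OSM, oncostatin M, which signals through gp130 with either the LIF or the oncostatin M receptor, varied little. Over all 30 arrays its probe set 214637_at ran from 5.46 to 5.93. At 24 h and 100 µg/ml it read 5.71, 5.88 and 5.64 in MWCNT cells, 5.82, 5.93 and 5.69 in TiO2-NB cells and 5.87, 5.69 and 5.75 in control cells. The OSM differences from control were -0.03 (95% confidence interval -0.19 to 0.14) for MWCNT and 0.04 (-0.12 to 0.21) for TiO2-NB, and no comparison called OSM.

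IL6R, the chain that binds interleukin 6, had the widest range of the members. Probe set 205945_at read 9.75, 9.55 and 9.45 in the MWCNT 100 µg/ml cells, 9.05, 8.25 and 7.05 in the TiO2-NB 100 µg/ml cells and 9.91, 10.09 and 9.80 in the control cells at 24 h. All 3 TiO2-NB arrays lay below the others, with replicate 3 the lowest of all 30 arrays, and the MWCNT arrays lay just under the control arrays. The fall for TiO2-NB was -1.82 ± 0.32 (adjusted p = 0.000155, limma), and it was called in all 16 alternatives. Without TiO2-NB replicate 3, the lowest array, it was -1.28, and without replicate 1 it was -2.29. For MWCNT the IL6R difference was -0.35 (95% confidence interval -1.01 to 0.30, adjusted p = 0.552, limma).

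The second IL6R probe set, 217489_s_at, moved the same way at a lower signal. It read 6.54, 6.43 and 6.25 in MWCNT 100 µg/ml cells, 6.01, 5.75 and 5.47 in TiO2-NB 100 µg/ml cells and 6.69, 6.66 and 6.52 in control cells at 24 h. The TiO2-NB arrays lay below both other groups. Its TiO2-NB difference was -0.87 ± 0.20 (adjusted p = 0.00187, limma) and its MWCNT difference -0.22 (95% confidence interval -0.62 to 0.19). Set directly against each other at 100 µg/ml, MWCNT cells exceeded TiO2-NB cells by 1.47 ± 0.32 on 205945_at (adjusted p = 0.00175, limma) and by 0.66 ± 0.20 on 217489_s_at (adjusted p = 0.0165, limma). The 205945_at difference had an adjusted p of 0.0606 (limma) when only those 6 arrays were fitted, and it was 0.93 without TiO2-NB replicate 3. The 217489_s_at difference was 0.59 (adjusted p = 0.0638, limma) without MWCNT replicate 1 and 0.52 (adjusted p = 0.092, limma) without TiO2-NB replicate 3.

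At 10 µg/ml and 24 h, IL6R 205945_at read 9.60, 9.44 and 8.49 in TiO2-NB cells, with no overlap with control, and 9.85, 9.89 and 9.88 in MWCNT cells, which overlapped it. The TiO2-NB differences at this dose were -0.76 on 205945_at (adjusted p = 0.832, limma) and -0.69 on 217489_s_at (adjusted p = 0.357, limma), with unadjusted p of 0.0243 and 0.00165. They did not pass the adjustment over all probe sets. The difference between 100 and 10 µg/ml of TiO2-NB was -1.06 ± 0.32 on 205945_at (adjusted p = 0.0274, limma), although the arrays overlapped, and -0.18 ± 0.20 on 217489_s_at (adjusted p = 0.638, limma). The 205945_at dose step was lost without TiO2-NB 100 µg/ml replicate 3 (-0.52, adjusted p = 0.249, limma) and without TiO2-NB 10 µg/ml replicate 1 (-0.84, adjusted p = 0.148) or replicate 2 (-0.93, adjusted p = 0.117), and with only the compared arrays (adjusted p = 0.256).

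IL6R also fell with time in culture without particles. In control cells 205945_at read 9.91, 10.09 and 9.80 at 24 h, against 10.96, 10.91 and 11.01 at 1 h, a difference of -1.02 ± 0.32 (adjusted p = 0.0133, limma). On 217489_s_at the difference between the controls was -0.75 ± 0.20 (adjusted p = 0.0038, limma). At 1 h, TiO2-NB cells at 100 µg/ml read 10.65, 10.55 and 10.46 on 205945_at, a difference from the 1 h control of -0.40 (95% confidence interval -1.06 to 0.25, adjusted p = 0.571, limma). These arrays did not overlap the control, and with the replicate block at 1 h the same difference had an SE of 0.08 and passed the test (adjusted p = 0.0274, limma). On 217489_s_at the 1 h difference with that block was -0.13 ± 0.13 and was not called (adjusted p = 0.51, limma). Its TiO2-NB arrays, at 7.22 to 7.25, overlapped the control arrays, at 7.23 to 7.62. The TiO2-NB response at 24 h minus that at 1 h was -1.41 ± 0.45 on 205945_at (adjusted p = 0.0335, limma) and -0.74 ± 0.28 on 217489_s_at (adjusted p = 0.0696, limma). The second passed in 6 alternatives, at an adjusted p of 0.0118 to 0.0453 (limma), the lowest with the block at 1 h. The first lost its call in 8 of 23 alternatives, down to -0.88 (adjusted p = 0.0977, limma) without 24 h TiO2-NB replicate 3. The others were 24 h control replicate 2, 1 h control replicates 1 and 2, each 1 h TiO2-NB array and the fit of only the compared arrays, at -1.46 to -1.34 and an adjusted p of 0.0501 to 0.0837 (limma).

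IL6ST, the gp130 chain that the whole family shares, moved opposite to IL6R. Probe set 212196_at read 7.49, 7.19 and 7.08 in MWCNT 100 µg/ml cells, 7.98, 7.68 and 7.85 in TiO2-NB 100 µg/ml cells and 7.26, 7.38 and 7.31 in control cells at 24 h. The TiO2-NB arrays lay above both other groups, and the MWCNT arrays ran over the control range. The rise for TiO2-NB was 0.52 ± 0.09 (adjusted p = 0.000246, limma), a 1.44-fold difference, called in all 15 alternatives that kept the probe set. For MWCNT the difference was -0.06 (95% confidence interval -0.26 to 0.13, adjusted p = 0.747, limma).

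The brighter IL6ST probe set, 212195_at, read 10.13, 9.89 and 9.84 in MWCNT 100 µg/ml cells, 10.55, 10.22 and 10.41 in TiO2-NB 100 µg/ml cells and 9.94, 10.19 and 9.91 in control cells at 24 h. The lowest TiO2-NB array was only just above the highest control array. The TiO2-NB difference on 212195_at was 0.38 ± 0.10 (adjusted p = 0.00853, limma), and it was 0.30 (adjusted p = 0.0601, limma) without TiO2-NB replicate 1 and at an adjusted p of 0.0705 with only the compared arrays. MWCNT cells stood below TiO2-NB cells by -0.44 ± 0.10 on 212195_at (adjusted p = 0.00307, limma) and by -0.59 ± 0.09 on 212196_at (adjusted p = 0.000113, limma).

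Against the 10 µg/ml dose, TiO2-NB at 100 µg/ml was higher by 0.34 ± 0.09 on IL6ST 212196_at (adjusted p = 0.018, limma) and by 0.25 ± 0.10 on 212195_at (adjusted p = 0.118, limma). The call on 212196_at was lost without replicate 1 or 3 of the higher dose or replicate 1 or 2 of the lower dose, and with only the compared arrays, at 0.27 to 0.34 and an adjusted p of 0.0547 to 0.0991 (limma). The TiO2-NB response of 212196_at at 24 h exceeded that at 1 h by 0.49 ± 0.13 (adjusted p = 0.0164, limma). On the brighter 212195_at the same interaction was 0.19 ± 0.14 and was not called (adjusted p = 0.387, limma). In control cells, 212195_at was higher at 24 h than at 1 h by 0.35 ± 0.10 (adjusted p = 0.00898, limma). That difference was 0.24 (adjusted p = 0.0874, limma) without 1 h replicate 1 and 0.26 (adjusted p = 0.0722, limma) without 24 h replicate 2, and its adjusted p was 0.0597 with only the control arrays. The third tested IL6ST probe set, 204864_s_at, ran from 4.34 to 5.13 and passed on 6 arrays, and 204863_s_at and 211000_s_at stayed under 3.90 and were not tested.

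STAT3, which carries the signal to the nucleus, was read by 2 probe sets. On 208991_at it read 9.73, 9.57 and 9.54 in MWCNT 100 µg/ml cells, 9.34, 8.87 and 8.53 in TiO2-NB 100 µg/ml cells and 9.56, 9.62 and 9.77 in control cells at 24 h. The TiO2-NB arrays were the lowest 3. The TiO2-NB difference was -0.74 ± 0.17 (adjusted p = 0.00206, limma), called in all 16 alternatives at -0.95 to -0.55, and the MWCNT difference was -0.04 (95% confidence interval -0.38 to 0.31). MWCNT cells exceeded TiO2-NB cells by 0.70 ± 0.17 on 208991_at (adjusted p = 0.00374, limma).

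The other STAT3 probe set, 208992_s_at, read 9.57, 9.50 and 9.44 in MWCNT 100 µg/ml cells, 9.42, 9.05 and 8.82 in TiO2-NB 100 µg/ml cells and 9.36, 9.48 and 9.60 in control cells at 24 h. Here TiO2-NB and control overlapped. The difference was -0.38 ± 0.13 (adjusted p = 0.0347, limma), and it lost its call in 6 of 15 alternatives: at an adjusted p of 0.0525 with each array centred on its median, 0.137 with only the compared arrays, 0.0789 without control replicate 2, 0.129 without control replicate 3, 0.0951 without TiO2-NB replicate 2, and 0.225 at a difference of -0.25 without TiO2-NB replicate 3 (limma). MWCNT exceeded TiO2-NB by 0.41 ± 0.13 on 208992_s_at (adjusted p = 0.0253, limma), and by 0.27 (adjusted p = 0.167, limma) without TiO2-NB replicate 3. That call was also lost without MWCNT replicate 1 (0.37, adjusted p = 0.0795) or replicate 2 (0.41, adjusted p = 0.0591), without TiO2-NB replicate 2 (0.38, adjusted p = 0.0766), and with only the compared arrays (adjusted p = 0.095).

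At 10 µg/ml and 24 h, TiO2-NB cells read 9.48, 9.32 and 9.28 on STAT3 208991_at, all below control, with a difference of -0.29 (95% confidence interval -0.63 to 0.05, adjusted p = 0.978, limma). The step between 100 and 10 µg/ml of TiO2-NB was -0.45 ± 0.17 (adjusted p = 0.0809, limma), and it passed the test in 3 alternatives. It was -0.66 (adjusted p = 0.00864, limma) without 100 µg/ml replicate 1, -0.61 (adjusted p = 0.00298, limma) with array weights, and -0.45 (adjusted p = 0.0167, limma) with TiO2-NB 10 µg/ml at 1 h replicate 2 out of the fit.

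At 1 h the TiO2-NB 100 µg/ml arrays of STAT3 lay above the control arrays on both probe sets, by 0.10 (95% confidence interval -0.24 to 0.45) on 208991_at and 0.15 (-0.12 to 0.42) on 208992_s_at, and neither passed the test. The response at 24 h minus that at 1 h was -0.84 ± 0.24 on 208991_at (adjusted p = 0.0178, limma) and -0.54 ± 0.18 on 208992_s_at (adjusted p = 0.0485, limma). Without 24 h TiO2-NB replicate 3 the first was -0.65 (adjusted p = 0.0566, limma), and the second lost its call in 15 of 22 alternatives, among them the removal of any of the 12 arrays except replicate 1 of both 24 h groups, at -0.40 (adjusted p = 0.143, limma) without 24 h TiO2-NB replicate 3. In the order of the 10 group means, all 9 neighbouring pairs overlapped for both STAT3 probe sets.

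In some groups, but not in all, the same array was the lowest for IL6R and STAT3. For the 4 probe sets of these 2 genes, the lowest array was replicate 3 for all 4 in TiO2-NB 100, TiO2-NB 10 and MWCNT 100 µg/ml at 24 h, replicate 2 for all 4 in TiO2-NB 10 µg/ml at 1 h, and replicate 1 for all 4 in MWCNT 10 µg/ml at 1 h. In the other groups, both controls included, the 4 probe sets did not share their lowest array. The MWCNT 10 µg/ml arrays at 1 h hardly differed on IL6R 205945_at, at 10.73 to 10.74. In TiO2-NB 10 µg/ml at 1 h IL6R 205945_at read 10.71, 9.80 and 10.77 and STAT3 208991_at read 9.96, 8.99 and 9.70. A rough measure of RNA quality is the log2 difference between 3-prime and 5-prime control probe sets, which grows as RNA breaks down. For ACTB, TiO2-NB 10 µg/ml at 1 h replicate 2 had the highest of all 30 arrays, 0.832. The 24 h TiO2-NB 100 µg/ml arrays had an ACTB value of 0.521, 0.491 and 0.539, against 0.350, 0.489 and 0.416 in control cells. For GAPDH, 24 h TiO2-NB 100 µg/ml replicate 3 had the highest of all arrays, 0.475, where the control arrays lay between 0.279 and 0.344. The other low arrays differed on these measures. MWCNT 100 µg/ml at 24 h replicate 3 had the highest ACTB (0.595) and GAPDH (0.358) values of its group. TiO2-NB 10 µg/ml at 24 h replicate 3 had the lowest ACTB (0.508) and GAPDH (0.282) values of its group. MWCNT 10 µg/ml at 1 h replicate 1 also had the lowest of its group (0.488 and 0.318). The part of RNA quality in the IL6R and STAT3 differences was not tested. With TiO2-NB 10 µg/ml at 1 h replicate 2 left out of the fit, a choice made after seeing the data, the counts of called probe sets at 100 µg/ml and 24 h were 2 of 16 for MWCNT and 7 of 16 for TiO2-NB.

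The SOCS genes, whose products end cytokine signals, showed 1 call against control in the fit of all 30 arrays. SOCS1 binds and blocks JAK kinases, and its probe set 209999_x_at read 4.93, 5.26 and 5.14 in MWCNT 100 µg/ml cells, 5.27, 5.67 and 5.43 in TiO2-NB 100 µg/ml cells and 5.74, 5.40 and 5.38 in control cells at 24 h. All MWCNT arrays lay below all control arrays. The MWCNT difference was -0.40 ± 0.12 (adjusted p = 0.0297, limma), and MWCNT stood below TiO2-NB by -0.35 ± 0.12 (adjusted p = 0.0352, limma).

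These SOCS1 calls were not stable. Against control, the call was lost without control replicate 1 (-0.28, adjusted p = 0.225, limma), MWCNT replicate 1 (-0.31, adjusted p = 0.159) or MWCNT replicate 3 (-0.41, adjusted p = 0.0667), and with cyclic loess (adjusted p = 0.054) or only the compared arrays (adjusted p = 0.108). Against TiO2-NB it was lost in 6 of 14 alternatives, down to -0.24 (adjusted p = 0.198, limma) without TiO2-NB replicate 2; the other 3 arrays whose removal ended it were MWCNT replicates 1 and 3 and TiO2-NB replicate 3. The other SOCS1 probe sets did not go along: MWCNT minus control was -0.11 (95% confidence interval -0.33 to 0.11) on 213337_s_at and 0.05 (-0.34 to 0.44) on 210001_s_at, and 210000_s_at was not tested. MWCNT minus TiO2-NB was -0.03 (-0.25 to 0.19) on 213337_s_at. On 210001_s_at it had the opposite sign, at 0.38 (-0.01 to 0.77, adjusted p = 0.145, limma), with no overlap of arrays and no call.

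SOCS3, the inhibitor that STAT3 itself induces and that binds gp130, was read by 3 tested probe sets and was not called against control at either dose or time in that fit. On 206359_at it read 5.40, 5.48 and 5.33 in MWCNT 100 µg/ml cells, 5.60, 5.66 and 5.69 in TiO2-NB 100 µg/ml cells and 5.16, 5.11 and 5.62 in control cells at 24 h. The TiO2-NB arrays lay close together and overlapped the control only through its replicate 3. The TiO2-NB difference was 0.36 (95% confidence interval 0.02 to 0.69, adjusted p = 0.123, limma), and it was 0.52 (adjusted p = 0.0314, limma) without control replicate 3. The other SOCS3 probe sets differed from control by 0.12 (-0.08 to 0.32) on 206360_s_at and by -0.14 (-0.41 to 0.14) on 214105_at, so the 3 disagreed in sign. Between 100 and 10 µg/ml of TiO2-NB at 24 h, 206359_at differed by 0.43 ± 0.16 (adjusted p = 0.0836, limma) with no overlap of arrays. It passed with the replicate block, with array weights and with only the compared arrays, at an adjusted p of 0.0293 to 0.0414 (limma).

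At 1 h and 100 µg/ml, SOCS3 206359_at read 5.60, 5.82 and 5.47 in MWCNT cells, 5.80, 6.32 and 5.73 in TiO2-NB cells and 5.65, 5.87 and 5.33 in control cells. The ranges overlapped, and each TiO2-NB array lay above the control array of its number. The TiO2-NB difference from control was 0.34 ± 0.16 in the fit of all arrays (adjusted p = 0.306, limma) and 0.34 ± 0.07 with the replicate block at 1 h (adjusted p = 0.0296, limma). MWCNT stood below TiO2-NB by -0.32 (adjusted p = 0.372, limma), at an adjusted p of 0.0425 with that block, and on 214105_at by -0.40 at 0.0496. The third probe set, 206360_s_at, went the other way from control with the block, at -0.25 (adjusted p = 0.103, limma). Between the controls, SOCS3 206360_s_at was lower at 24 h than at 1 h by -0.26 ± 0.10 (adjusted p = 0.0339, limma), with overlapping arrays. That call was lost without 1 h replicate 1 (-0.23, adjusted p = 0.116, limma) or 2 (-0.21, adjusted p = 0.147), without 24 h replicate 2 (-0.18, adjusted p = 0.196), and with only the control arrays (adjusted p = 0.12). The controls differed by -0.32 on 206359_at (adjusted p = 0.134, limma) and by 0.14, with the opposite sign, on 214105_at (adjusted p = 0.455, limma).

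SOCS2, which acts mainly on growth hormone signalling, sat at the filter. Its probe set 203373_at ran from 4.05 to 5.08 and passed on 3 of 30 arrays, and 203372_s_at stayed under 3.13 and was not tested. At 24 h and 100 µg/ml, 203373_at read 4.55, 4.65 and 4.67 in MWCNT cells, 4.87, 4.74 and 4.84 in TiO2-NB cells and 4.58, 4.45 and 4.82 in control cells. The SOCS2 differences from control were 0.01 (95% confidence interval -0.26 to 0.27) for MWCNT and 0.20 (-0.06 to 0.47) for TiO2-NB, and no comparison called it.

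**Figure D3:**
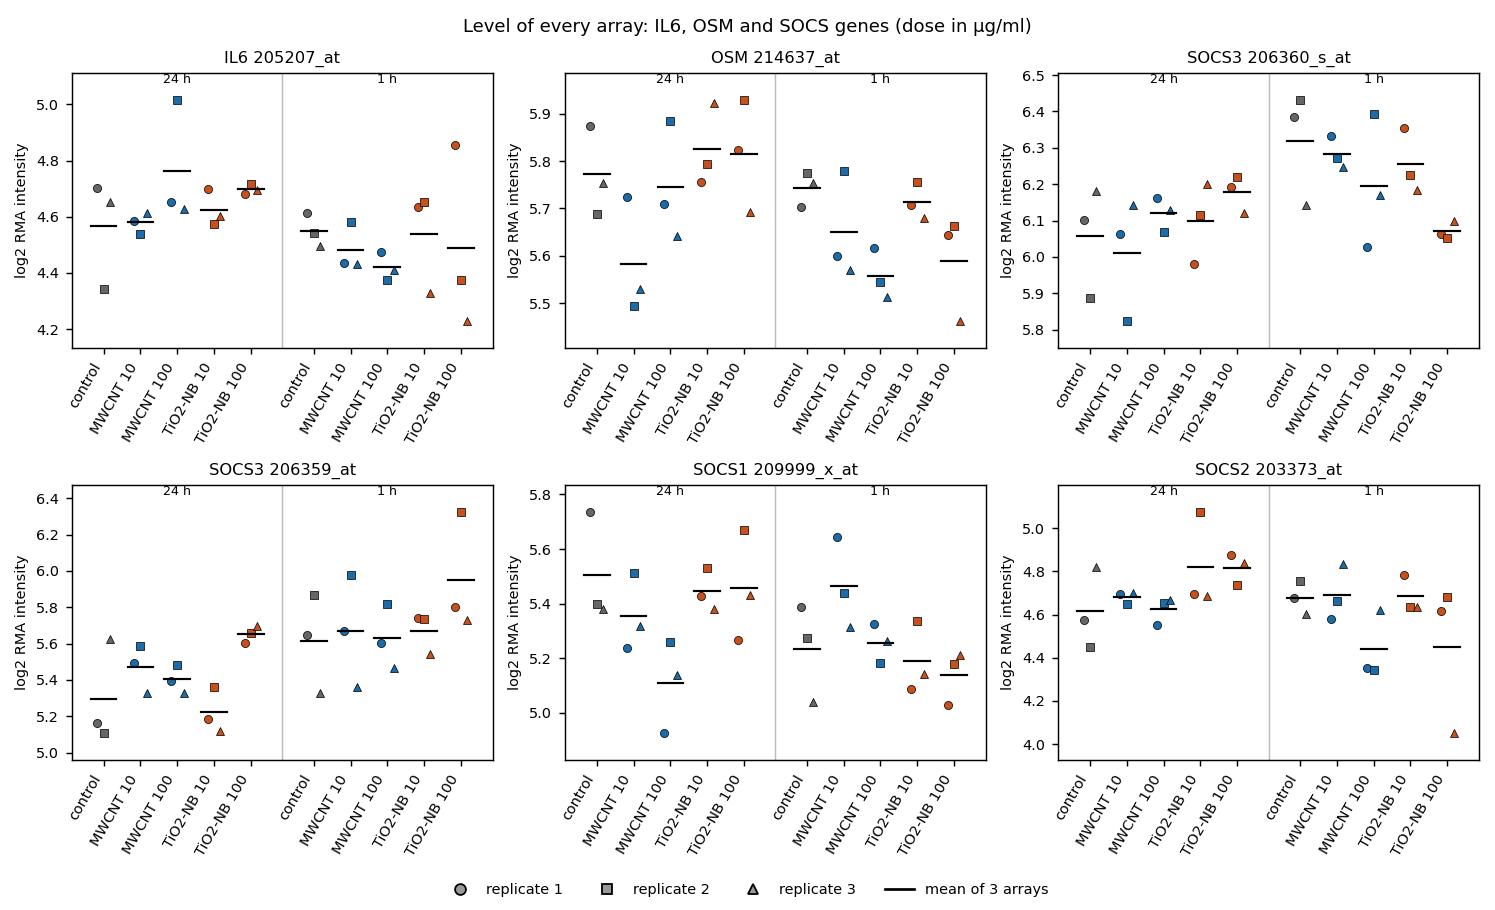
Log2 RMA intensity of each array for IL6, OSM, SOCS3 (2 probe sets), SOCS1 and SOCS2, laid out by time, material and dose in µg/ml, with the mean of 3 arrays as a bar. Each panel has its own vertical axis, and the groups overlap in most comparisons, with SOCS1 in MWCNT 100 µg/ml cells at 24 h below its control.

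Counts over the members in the remaining comparisons followed the same genes. MWCNT against TiO2-NB at 100 µg/ml and 24 h called 8 of 16 probe sets, 4 higher (IL6R and STAT3, both probe sets each) and 4 lower (LIF, 2 of IL6ST and 1 of SOCS1), where 23.9% of all probe sets were called, 14% higher and 9.95% lower, and 11 of 16 did not overlap, against 39.6%. Without MWCNT replicate 1 or TiO2-NB replicate 3 this count was 4. The step between 100 and 10 µg/ml at 24 h called 1 of 16 for MWCNT (LIF), where 3.49% of all were called, and 3 of 16 for TiO2-NB (LIF, IL6R and IL6ST), where 12.9% were. The TiO2-NB step fell to 1 of 16 without 10 µg/ml replicate 1 or 2 or 100 µg/ml replicate 3. Calls over all probe sets fell as well when 1 array was left out. They ran from 2578 to 3387 between the materials, against 3660 with all arrays. For the TiO2-NB step they ran from 1280 to 1762, against 1973.

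The 24 h against the 1 h control called 5 of 16, where 35.2% of all probe sets were called, and this count was 3 without 1 h replicate 2 and 2 without 24 h replicate 2. The interaction of response and time called 5 of 16 for TiO2-NB 100 µg/ml (15.7% of all) and 1 of 16 for MWCNT 100 µg/ml (2.83%). The TiO2-NB count was 3 without 1 h control replicate 1 or 2, 24 h control replicate 2 or any of the 1 h TiO2-NB 100 µg/ml arrays, and 2 without 24 h TiO2-NB replicate 3. The F test of any exposure called 7 of 16 at 24 h, where 27.7% of all were called, and 4 of 16 without 24 h TiO2-NB 100 µg/ml replicate 3. Calls over all probe sets also moved when 1 array was left out. They ran from 4543 to 4941 for the controls, against 5386 with all arrays. For the TiO2-NB interaction they ran from 1549 to 2492, against 2408, and for any exposure at 24 h from 3383 to 4272, against 4246.

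No member was called at 10 µg/ml at 24 h. There limma called 0% of all probe sets for MWCNT and 0.098% for TiO2-NB, and an unadjusted p under 0.05 was found for 1 of 16 members and 587 of 15309 probe sets for MWCNT and for 3 of 16 and 846 of 15309 for TiO2-NB. TiO2-NB at 10 µg/ml and 24 h did not overlap the control for 5 of 16 members, both probe sets of IL6R, both of STAT3 and IL6ST 212196_at, against 10.7% of all probe sets. MWCNT against TiO2-NB at 10 µg/ml and 24 h called 0 of 16 members and 0.0131% of all probe sets, with an unadjusted p under 0.05 for 4 of 16 members and 1585 of 15309 probe sets. In the fit of all arrays limma called no member at 1 h either. For MWCNT at 100 µg/ml 0% of all probe sets were called, and an unadjusted p under 0.05 was found for 1 of 16 members, OSM, and 575 of 15309 probe sets. For TiO2-NB at 100 µg/ml 0.954% were called, with 3 of 16 and 2430 of 15309. For MWCNT against TiO2-NB at 100 µg/ml 0.98% were called, with 1 of 16 and 2151 of 15309. With the replicate block at 1 h the calls were 0 of 16 and 0.131% of all for MWCNT, 2 of 16 (IL6R 205945_at and SOCS3 206359_at) and 7.72% for TiO2-NB, and 2 of 16 (2 of SOCS3) and 3.93% between them.

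The genes whose 10 group means followed each member most closely were found among 10049 other genes, as a description with no test. LIF ran most like ADAMDEC1 (Pearson r = 0.990), HSPA9 (0.985) and USP12 (0.984), and USP12 read 9.51, 9.52 and 9.55 in MWCNT 100 µg/ml cells, 9.96, 9.78 and 10.04 in TiO2-NB 100 µg/ml cells and 8.96, 9.19 and 8.84 in control cells at 24 h. IL6R ran most like SREK1IP1 (0.997), NUCKS1 (0.997) and TNN (0.996). IL6ST ran most like GPN2 (0.990), POFUT2 (0.987) and SYNJ1 (0.982). STAT3 ran most like MTDH (0.985), THOC2 (0.983) and EXO5 (0.982). MTDH shared its low array at 24 h, with 11.10, 10.58 and 9.95 in TiO2-NB 100 µg/ml cells, against 11.53, 11.59 and 11.51 in control cells. MTDH, THOC2 and EXO5 also shared the low replicate 2 of TiO2-NB 10 µg/ml at 1 h, which enters 1 of the 10 means. In that group MTDH read 11.84, 10.58 and 11.79, THOC2 9.26, 8.42 and 9.49, and EXO5 7.85, 6.68 and 7.85. The 10 points of each correlation share their arrays and, for each time, 1 control group.

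Of the rest of the pathway, 57 genes in 5 lists were looked up and 43 had a tested probe set. Each list gene was read by its tested probe set with the highest mean. The shares over all count every tested probe set, dim ones included, so the 2 are not fully alike. TiO2-NB at 100 µg/ml and 24 h had 12 of the 43 higher and 5 lower, with a median log2 difference of 0.12, against 10.1% higher, 12% lower and a median of 0.01 over all probe sets. MWCNT at 100 µg/ml had 4 of 43 higher and 0 lower, with a median of -0.01, against 7.48% higher, 3.55% lower and a median of -0.02 over all. At 10 µg/ml and 24 h limma called none of the 43 for either material, against 0% of all for MWCNT and 0.098% for TiO2-NB. At 1 h, MWCNT at 100 µg/ml had none called, against 0% of all, and TiO2-NB at 100 µg/ml had 0 higher and 2 lower, against 0.954% called of all. With the replicate block at 1 h, 4 of the 43 were called for TiO2-NB, against 7.72% of all.

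Among 3 tested other ligands of the family, EBI3, the subunit shared by interleukins 27 and 35, rose in MWCNT cells. EBI3 read 10.33, 10.82 and 10.87 in MWCNT 100 µg/ml cells, 9.37, 9.41 and 9.47 in TiO2-NB 100 µg/ml cells and 8.57, 8.69 and 8.60 in control cells at 24 h. The 3 groups did not overlap. The EBI3 difference from control was 2.06 ± 0.52 for MWCNT (adjusted p = 0.0104, limma), called in all 16 alternatives, and 0.80 ± 0.52 for TiO2-NB (adjusted p = 0.306, limma). The direct EBI3 difference of MWCNT from TiO2-NB was 1.26 ± 0.52 and was not called (adjusted p = 0.0821, limma). The SE of 0.52 is shared with the 1 h arrays, where EBI3 read 9.61, 7.72 and 8.47 in control cells and ranged between 7.39 and 9.59 in the exposed groups. That spread followed the replicate number in every 1 h group but TiO2-NB 10 µg/ml, and the fit has no term for it. With the replicate number as a block over all arrays, the adjusted p was 0.29 for TiO2-NB against control and 0.0739 for MWCNT against TiO2-NB (limma). With only the compared 24 h arrays the 2 uncalled differences passed, at an adjusted p of 0.00105 for TiO2-NB against control and 0.00384 for MWCNT against TiO2-NB (limma). CTF1, cardiotrophin 1, was called higher in TiO2-NB cells at 0.39 ± 0.12 (adjusted p = 0.0261, limma) with overlapping arrays, and that call was lost without any of control replicates 2 and 3 or TiO2-NB replicates 1 and 2 (0.28 to 0.40, adjusted p 0.0543 to 0.154), with array weights (adjusted p = 0.132) or with only the compared arrays (adjusted p = 0.096).

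Of 3 other receptors tested, IL27RA, the interleukin 27 receptor, rose in TiO2-NB cells, with 8.19, 8.44 and 8.49 against 7.81, 8.08 and 7.90 in control cells (0.44 ± 0.12, adjusted p = 0.00784, limma). Of 8 JAK kinases and other STATs, TiO2-NB had 1 higher and 1 lower. JAK2 fell, with 6.59, 6.74 and 6.60 in TiO2-NB cells, against 7.16, 7.29 and 6.93 in control cells (-0.49 ± 0.12, adjusted p = 0.00407, limma). JAK1, the main kinase on gp130, was called higher at 0.33 ± 0.10 (adjusted p = 0.023, limma), but its arrays overlapped, and it was 0.24 (adjusted p = 0.145) without control replicate 1, 0.33 (adjusted p = 0.0577) without control replicate 2 and 0.22 (adjusted p = 0.163) without TiO2-NB replicate 1, with an adjusted p of 0.148 with only the compared arrays. In MWCNT cells STAT5A was higher by 0.28 ± 0.06 (adjusted p = 0.0037, limma), with 8.47, 8.59 and 8.56 against 8.33, 8.21 and 8.25 in control cells, and this was at an adjusted p of 0.0616 with only the compared arrays.

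Of 13 other inhibitors and proteins of receptor shedding, TiO2-NB had 2 higher and 3 lower, and MWCNT had none called. PTPN6, the phosphatase SHP-1 that acts on JAK kinases, read 9.76, 9.83 and 9.87 in TiO2-NB cells, against 9.37, 9.29 and 9.50 in control cells. The difference was 0.44 ± 0.08 (adjusted p = 0.000165, limma). In 1 h control cells PTPN6 read 10.05, 9.98 and 10.02, above all of these. ADAM10, a protease that can cleave IL6R from the cell surface, read 11.01, 11.09 and 11.08 in TiO2-NB cells, against 11.41, 11.53 and 11.39 in control cells, a difference of -0.38 ± 0.07 (adjusted p = 0.000322, limma). SOCS6 was lower by -0.44 ± 0.13 (adjusted p = 0.0202, limma), and its call was lost without control replicate 2 (-0.27, adjusted p = 0.177) or TiO2-NB replicate 1 (-0.41, adjusted p = 0.0635) or 2 (-0.37, adjusted p = 0.0897), and with only the compared arrays (adjusted p = 0.11).

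Of 16 genes listed as STAT3 targets, TiO2-NB had 7 higher and 1 lower, with a median of 0.20, and MWCNT had 2 higher, with a median of 0.00. Over all probe sets, 10.1% were called higher and 12% lower for TiO2-NB, and 7.48% higher for MWCNT. CEBPB, a transcription factor of the acute phase response, rose with both: it read 12.43, 12.38 and 12.38 in MWCNT cells, 12.83, 12.77 and 12.82 in TiO2-NB cells and 11.96, 12.00 and 12.19 in control cells. The CEBPB rise was 0.76 ± 0.10 for TiO2-NB (adjusted p = 9.36e-06, limma) and 0.35 ± 0.10 for MWCNT (adjusted p = 0.031, limma). The MWCNT call on CEBPB was lost without any of 5 of its 6 arrays, control replicate 3 excepted, at 0.30 to 0.35 and an adjusted p of 0.0714 to 0.15. PIM1, a kinase that promotes survival, was higher in TiO2-NB than in 24 h control cells by 0.67 ± 0.18 (adjusted p = 0.00733, limma). IRF1, a transcription factor of the interferon response, was higher by 0.61 ± 0.14 (adjusted p = 0.00271, limma). These TiO2-NB arrays read 10.16, 9.87 and 9.86 for PIM1, against 9.97, 10.20 and 9.71 in 1 h control cells. For IRF1 they read 8.72, 8.48 and 8.51, below the 1 h control arrays at 9.07, 9.47 and 9.22.

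MYC, the growth factor response gene, rose in MWCNT cells, with 11.10, 10.85 and 10.77 in MWCNT cells, 10.71, 10.18 and 10.10 in TiO2-NB cells and 10.19, 10.14 and 10.63 in control cells at 24 h. The MYC rise of 0.59 ± 0.14 (adjusted p = 0.00718, limma) was at an adjusted p of 0.0534 without control replicate 1 (0.52), 0.0507 without MWCNT replicate 1 (0.49) and 0.0539 with only the compared arrays. MYC was higher in MWCNT than in TiO2-NB cells by 0.58 ± 0.14 (adjusted p = 0.00504, limma). Many of the listed targets also answer to other signals, and STAT3 activity was not measured. IL27, CNTF, CLCF1, LIFR, OSMR, LEPR, STAT2, IL10 and BCL3 are among the 14 list genes not analysed here.

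**Figure D4:**
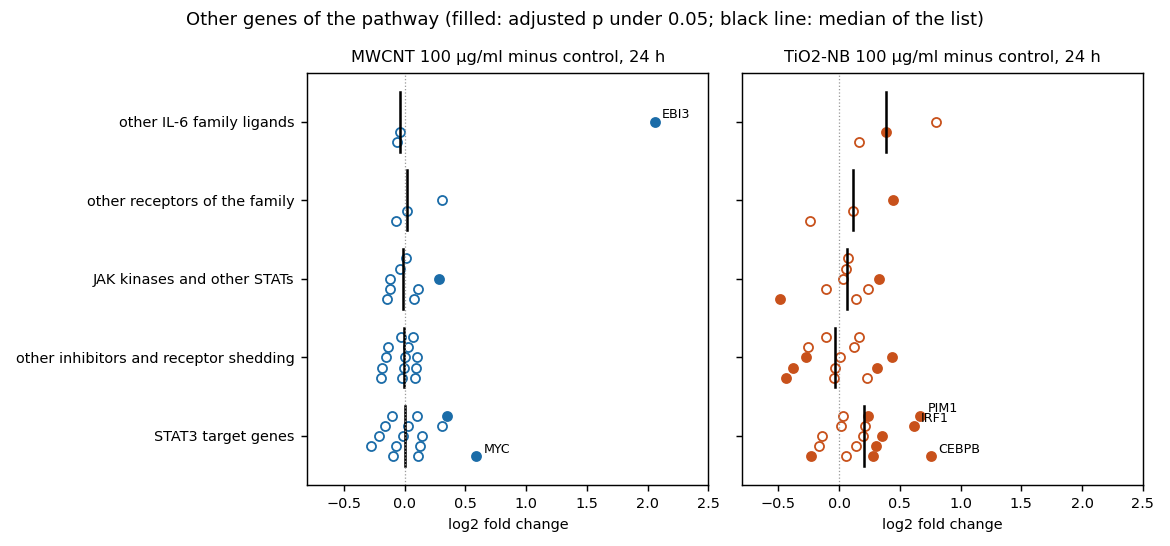
Log2 difference from the 24 h control of the 43 tested list genes, 1 point a gene, for MWCNT at 100 µg/ml (left) and TiO2-NB at 100 µg/ml (right); filled points have an adjusted p under 0.05 and the black line is the median of each list. EBI3 stands alone at 2.06 in the MWCNT panel, and the STAT3 target list has its median at 0.20 in the TiO2-NB panel.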

How the data were processed

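RNA of 30 cultures was measured on Affymetrix arrays. The deposited values are log2 intensities per probe set, which the authors summarised with RMA (named without a version in the submitters' processing notes); software and settings are not given in the sources used here. RMA normalizes between arrays, which removes a shift shared by all genes. Values ran from 1.89 to 14.42 and were not normalized again.

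Of 22277 probe sets, 62 controls, 1043 of several genes and 2108 of no gene were left out, and 15309 of 19064 passed the filter. R 4.3.3 and limma 3.58.1 fitted 10 group means with 20 residual degrees of freedom, for 19 comparisons and an F test per time. Arrays carry no read depth; precision is limited by their number, 3 a group.

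The members and lists were chosen with earlier results of these data known. All 9 members are named; per list, up to 3 called genes with the largest change; and for each member called by the F test at 24 h, the 3 genes most like it. Alternatives changed scaling, filter, probe set choice, arrays fitted, replicate block, array weights and prior, and left out each array in turn. Equally numbered arrays had r over 0.1 in 36 of 60 pairs: in 14 of 30 at 24 h, in 22 of 30 at 1 h and in all 18 at 1 h without TiO2-NB 10 µg/ml, where a block on the number was added after seeing the data.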

Additional observations from a re-analysis of the deposited data

Results flagged for a closer look

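The 6 results below were singled out because the response of the same probe set to the same exposure differed between 24 h and 1 h in limma's interaction test. For LIF the response at 24 h minus that at 1 h was 0.95 (SE 0.19, adjusted p = 0.00877) with MWCNT and 1.42 (SE 0.19, adjusted p = 4e-05) with TiO2-NB, both at 100 µg/ml. For TiO2-NB at 100 µg/ml it was -1.41 (SE 0.45, adjusted p = 0.0335) for IL6R 205945_at and 0.49 (SE 0.13, adjusted p = 0.0164) for IL6ST 212196_at. For STAT3 it was -0.84 (SE 0.24, adjusted p = 0.0178) on 208991_at and -0.54 (SE 0.18, adjusted p = 0.0485) on 208992_s_at. Both LIF results and the IL6ST result were called in all their alternatives, and the IL6R and STAT3 results were not. The brighter IL6ST probe set 212195_at was not called, at 0.19 (SE 0.14, adjusted p = 0.387, limma). The second IL6R probe set 217489_s_at was not called either, at -0.74 (SE 0.28, adjusted p = 0.0696, limma). No cause of these differences was tested.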

How the results depend on the processing

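No called result of the members changed direction under any alternative run. The count of called members for MWCNT at 100 µg/ml against control at 24 h was 2, and 1 with cyclic loess, with the filter at the array median, with 1 probe set per gene and with only the compared arrays. The filter at the array median and 1 probe set per gene left SOCS1 209999_x_at untested. Counts over all probe sets moved too, as given below, and are not set beside the member counts setting by setting. With 1 probe set per gene, 8 member probe sets are tested rather than 16. On that smaller base the member count was 4 rather than 7 for TiO2-NB at 100 µg/ml and 4 rather than 8 for MWCNT against TiO2-NB. It was 3 rather than 5 for the TiO2-NB interaction and 4 rather than 7 for any exposure at 24 h. With only the compared arrays it was 5 for MWCNT against TiO2-NB and 3 rather than 5 for the controls, and with array weights 2 rather than 1 for the MWCNT dose step and 5 rather than 3 for the TiO2-NB dose step; the cause was not tested. Leaving out 1 array gave 1 to 2 for MWCNT at 100 µg/ml, 6 to 7 for TiO2-NB, 4 to 8 between them, 1 to 3 for the TiO2-NB dose step, 2 to 5 for the controls, 2 to 6 for the TiO2-NB interaction, 1 each time for the MWCNT dose step and interaction, and 4 to 7 for any exposure at 24 h.

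With the replicate number as a block the counts were 2, 7 and 8 for these 3 comparisons at 100 µg/ml, 4 for the TiO2-NB dose step, 4 for the TiO2-NB interaction and 6 for any exposure at 24 h. The STAT3 208992_s_at interaction lost its call under the block (adjusted p = 0.0538) and SOCS3 206359_at gained one in the TiO2-NB dose step (adjusted p = 0.0414). Of all arrays, 20 of 30 correlated best with their own number, 7 of 15 at 24 h and 12 of 12 at 1 h without TiO2-NB 10 µg/ml. With the block over those 12 arrays, the members called at 1 h and 100 µg/ml were 2 rather than 0 for TiO2-NB and for MWCNT against TiO2-NB, and 0 in both with the same arrays and no block. With the block at 1 h only, the interactions called 1 for MWCNT and 6 for TiO2-NB.

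Counts over all probe sets moved more: 1688 for MWCNT at 100 µg/ml and 24 h (917 to 2788 over the alternatives), 3377 for TiO2-NB (2024 to 3471), 1973 for the TiO2-NB dose step (982 to 2803), 535 for the MWCNT dose step (200 to 2101), 146 for TiO2-NB at 100 µg/ml and 1 h (0 to 1182), 0 for MWCNT at that dose and time (0 to 20), 150 and 2 for MWCNT against TiO2-NB at 100 µg/ml and 1 h and at 10 µg/ml and 24 h (0 to 602 and 0 to 239), 433 and 2408 for the MWCNT and TiO2-NB interactions (134 to 1139 and 1545 to 3480), 98 for any exposure at 1 h (0 to 165) and 15 for TiO2-NB at 10 µg/ml and 24 h (0 to 25). Median centring of the arrays turned the majority of 2 comparisons: TiO2-NB against control at 100 µg/ml and 24 h had 1835 higher and 1582 lower rather than 1547 and 1830, and MWCNT against TiO2-NB 1841 and 1913 rather than 2137 and 1523. Called genes of the pathway lists numbered 4 (2 to 8) for MWCNT and 17 (9 to 18) for TiO2-NB. Signal limits IL6, SOCS2 and 4 other probe sets, which lie near or under the 25th percentile of the arrays.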
